A study of Mus musculus with 51 samples.

Results

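The MHC-linked olfactory receptors (ORs) analysed here were all genes numbered *Olfr89* to *Olfr137*. Those numbers were chosen with earlier results of these data known, so counts among these genes beside those of all ORs are descriptions. The deposited tables held 44 of these 49 numbers among 1117 OR genes, and *Olfr89*, *Olfr100*, *Olfr104*, *Olfr105* and *Olfr106* had no row. ORs are G protein-coupled receptors that bind odorants on the cilia of olfactory sensory neurons (OSNs), and each mature OSN expresses a single OR gene out of the whole repertoire. The genes of this cluster adjoin the class I region of the major histocompatibility complex (MHC), called H2 in the mouse, and an OR cluster is linked to the MHC in humans too. The ligands of most of its receptors are not known.

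Libraries were made from whole olfactory mucosa, 1 per mouse, at an age of about 3 weeks. Mice were first habituated for 1 hr without odor and then exposed for 1 hr to 10 µL of an odorant or of diluent. Phosphorylated ribosomal protein S6 (pS6) marks recently active neurons, so immunoprecipitation of pS6 followed by sequencing (pS6-IP-Seq) gives the transcripts of activated OSNs a larger share of the reads. There were 30 libraries in 10 odor groups and 21 in 7 control groups, with 3 mice in every group. SBT (2-*sec*-butyl-4,5-dihydrothiazole), a volatile of male mouse urine, was given at 0.01%, 1% and 100%. MTMT, (methylthio)methanethiol, another male urinary volatile, was given at 100 µM and 10 mM, and cyclopentadecanone (CPD), a macrocyclic musk, at 100 mM. (*E*)-β-farnesene was used at 100%, dehydro-exo-brevicomin (DHB) at 77%, and β-caryophyllene and 2,5-dimethylpyrazine (2,5-DMP) at 1% each. The 1% and 100% SBT groups shared 3 control mice, and the (*E*)-β-farnesene, 2,5-DMP and 100 µM MTMT groups shared another 3. Mice were C57BL/6J littermates of mixed sex. The methods give ethanol as the diluent of MTMT and CPD and water for the other odorants, and the labels do not name the diluent of each control mouse. By those methods, the controls shared by (*E*)-β-farnesene, 2,5-DMP and 100 µM MTMT cannot match the diluent of all 3 groups. The tables held OR genes only, so markers of the tissue were not checked here.

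Libraries held 27301 to 160001 OR reads (median 93870). The control mice of 1% and 100% SBT were the shallowest group, at 27301 to 57154 reads, against 57551 to 104517 for 100% SBT. Between 39 and 44 of the receptors had at least 1 read in any library. In pS6 precipitates of bulk tissue, the number of OSNs of a type, receptor RNA per OSN and S6 phosphorylation cannot be told apart.

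The number rule gave a single physical cluster. In GRCm38, all 44 genes were on chromosome 17 (chr17:37083871-38336643), a span of 1252.773 kb, with 22 on each strand. The class I genes *H2-M3* and *H2-M2* lay inside that span, and the other 32 protein-coding H2 genes of the chromosome lay before it. *Olfr138* and *Olfr761* lie in the span too but have numbers outside the range. Each receptor had 1 uninterrupted coding exon. Linking proteins of at least 60% identity gave 14 subfamilies, 6 of them with a single receptor, while the median identity over all 946 pairs was 41.9%.

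Receptors of the cluster that rose after 100% SBT came from 4 of these subfamilies, and their coding sequences show how far apart they are. The following 60 bases of GRCm38 begin at the codons for the conserved motif that closes the third membrane span of ORs, are read 5′ to 3′ on the coding strand, and carry capitals where the base differs from *Olfr96*.
Olfr96: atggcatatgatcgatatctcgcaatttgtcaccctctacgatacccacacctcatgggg
Olfr136: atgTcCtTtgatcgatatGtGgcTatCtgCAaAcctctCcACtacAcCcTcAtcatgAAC
Olfr110: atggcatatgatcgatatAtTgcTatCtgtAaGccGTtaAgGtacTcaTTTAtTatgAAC
Olfr111: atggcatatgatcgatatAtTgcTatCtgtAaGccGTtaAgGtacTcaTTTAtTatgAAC
Olfr112: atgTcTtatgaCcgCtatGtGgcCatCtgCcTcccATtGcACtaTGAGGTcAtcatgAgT
Olfr115: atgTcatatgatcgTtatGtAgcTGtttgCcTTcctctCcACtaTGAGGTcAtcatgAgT
Olfr116: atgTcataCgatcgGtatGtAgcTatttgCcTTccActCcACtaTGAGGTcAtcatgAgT
Olfr125: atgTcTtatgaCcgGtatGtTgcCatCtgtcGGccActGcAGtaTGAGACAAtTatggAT

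The stretches lie at chr17:37225481-37225540 (*Olfr96*, plus strand), chr17:38335510-38335569 (*Olfr136*, plus), chr17:37499004-37499063 (*Olfr110*, plus), chr17:37530330-37530389 (*Olfr111*, plus), chr17:37563899-37563958 (*Olfr112*, minus), chr17:37610345-37610404 (*Olfr115*, minus), chr17:37624223-37624282 (*Olfr116*, minus) and chr17:37835343-37835402 (*Olfr125*, plus). The other 7 differed from *Olfr96* at 19 to 25 of the 60 bases, and *Olfr110* and *Olfr111* were identical to each other there. Over the whole protein, *Olfr96* was at most 45.5% identical to another receptor of the cluster (*Olfr95*). *Olfr112*, *Olfr115* and *Olfr116* were 83.3% to 85.6% identical to one another and 57.7% to 60.2% identical to *Olfr125*.

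*Olfr110* and *Olfr111* are the closest pair among the called receptors, at 97.8% protein identity. Their coding sequences are each 951 bases long and differ at 18 positions, and the longest run they share is 416 bases, longer than the 50- or 75-base reads. The 60-base window with most differences holds 5 of them, in capitals, at chr17:37499469-37499528 in *Olfr110* and chr17:37530795-37530854 in *Olfr111*, both on the plus strand.
Olfr110: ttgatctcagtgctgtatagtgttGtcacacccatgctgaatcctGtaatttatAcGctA
Olfr111: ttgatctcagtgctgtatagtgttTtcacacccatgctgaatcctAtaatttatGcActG

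Of the stretches of 50 bases in their transcripts, *Olfr110* shares 31.8% with *Olfr111*, and the division of reads between them is uncertain. *Olfr115* and *Olfr116* overlap on the same strand by 304 exonic bases, so their counts are uncertain in the same way. *Olfr96* and *Olfr132* share no stretch of 50 bases with another OR gene. *Olfr136* shares 3.7% of its stretches with *Olfr138*, *Olfr90* 3.4% with *Olfr1247*, *Olfr112* 3.1% with *Olfr113* and *Olfr125* 0.96% with *Olfr30*. Except for *Olfr136*, these also share smaller parts with further OR genes.

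Without odor, the cluster took a steady share of the OR reads. Over the 21 control libraries its summed share was 5.20% ± 0.343 (SD, n = 21), from 4.30% to 5.88%, while its genes made up 3.94% of the OR genes in the tables. A few receptors carried much of it, and the 5 with the largest shares together held 41.2% of the cluster's reads. They were *Olfr124* at a mean of 0.697% of OR reads (SD 0.153), *Olfr131* at 0.467% (SD 0.0906), *Olfr110* at 0.393% (SD 0.0841), *Olfr132* at 0.323% (SD 0.0856) and *Olfr136* at 0.264% (SD 0.0372). These are shares of reads, which also grow with the length of a transcript.

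Levels of different genes were therefore compared per kb of annotated exon. On that scale *Olfr131* was highest at 0.259% per kb (SD 0.0502), followed by *Olfr110* at 0.224% per kb (SD 0.0480), *Olfr132* at 0.169% per kb (SD 0.0447), *Olfr124* at 0.149% per kb (SD 0.0329) and *Olfr96* at 0.108% per kb (SD 0.0141). *Olfr131* and *Olfr110* differed by less than 1 SD, as did *Olfr132* and *Olfr124*, so the order within each of these pairs is not set beyond the spread between libraries. At the other end, *Olfr135*, *Olfr98* and *Olfr108* held the fewest reads. *Olfr98* had a read in 5 of the 21 control libraries and *Olfr108* in 3, with 112 and 19 reads over all 51 libraries. *Olfr108* never reached the minimum of 10 reads in a comparison and was not tested in any of them.

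The mean summed share ranged from 4.14% (10 mM MTMT) to 6.56% (100% SBT) over the 10 odor groups. At 100% SBT it was 5.52%, 7.61% and 6.54% in the 3 mice, against 4.30%, 5.64% and 5.04% in the controls, a log2 ratio of the means of 0.39 (SE 0.17). The groups overlapped, since the highest control lay above the lowest odor library. The rise in the sum was not shared by all receptors. In shares, 9 of the 43 tested lay wholly above their controls (13.3% of all ORs did) and 7 wholly below (20.3%). *Olfr96* gained most, from a mean of 0.218% in controls to 1.34%, while the mean sum went from 4.99% to 6.56%. The sum without *Olfr96* was not computed. Equal replicate numbers were taken to pair the mice here, from correlations of 0.107 to 0.112 in these same data. The labels do not name pairs. Within equal numbers, the summed share was higher with odor in 3 of 3, by 1.28, 1.35 and 1.30 times (mean log2 ratio 0.39, SE 0.022 over the 3 pairs). The smaller SE rests on that pairing, which was picked from these same libraries, so it adds no support. The same control mice were not taken to pair with the 1% SBT mice, at correlations of 0.0511 to 0.177. At 0.01% SBT the means were 5.55% ± 0.324 (SD, n = 3) with odor and 5.54% ± 0.337 (SD, n = 3) in controls, and at 1% SBT they were 5.01% ± 1.17 (SD, n = 3) and 4.99% ± 0.668 (SD, n = 3). No rise in the sum was therefore detectable at the lower doses.

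With (*E*)-β-farnesene the summed share was 6.29%, 6.11% and 6.35%, against 5.02%, 5.32% and 5.44% in controls, a log2 ratio of 0.25 (SE 0.038). All 3 odor libraries were above all 3 controls, in this odor group alone among the 10. All 3 lay below their controls with 100 µM MTMT, at 4.81% ± 0.113 (SD, n = 3), and with 10 mM MTMT, at 4.14% ± 0.613 (SD, n = 3) against 5.22% ± 0.137 (SD, n = 3). *Olfr132* alone went from a mean of 0.280% in controls to 0.770% with (*E*)-β-farnesene, while the mean sum went from 5.26% to 6.25%. The sum without *Olfr132* was not computed. The whole sum is given as a description without a test. It is a share of all OR reads, so it falls when receptors elsewhere in the genome take more of them.

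**Figure D1:**
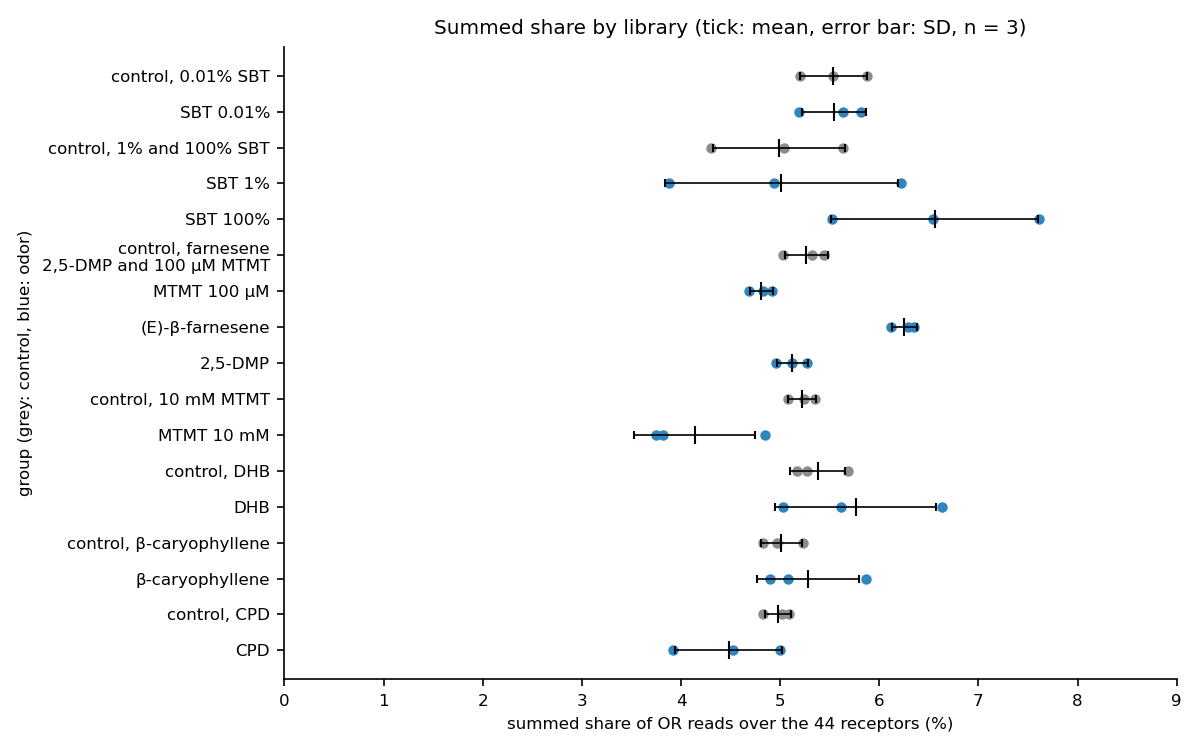
Summed share of OR reads over the 44 receptors (x axis, percent, from 0) in each library of each group (y axis); grey points are control libraries and blue points odor libraries, the tick is the mean and the bar the SD of 3 mice. The (*E*)-β-farnesene libraries lie at 6.11% to 6.35%, above their controls, and the 100% SBT libraries spread from 5.52% to 7.61%.

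At 100% SBT, 8 of the 43 receptors tested rose and none fell (edgeR quasi-likelihood test, Benjamini-Hochberg adjusted over all 1050 ORs tested). That is 18.6% of the receptors tested, beside 10.7% of all ORs tested that rose in the same comparison. The range was chosen with earlier results known, so the difference between these percents is a description and was not tested. The median log2 fold change was 0.29 over the cluster and -0.07 over all ORs. These fold changes are relative to the bulk of ORs (TMM scaling). Scaling by library totals instead lowered fold changes at 100% SBT by a median of 0.39. The medians were then -0.09 over the cluster and -0.47 over all ORs. That scaling left 5 receptors of the cluster that rose, and 85 of all ORs beside 112 with TMM. All 3 odor shares lay above all 3 control shares in 9 of 43 receptors, beside 13.3% of all ORs, and below them in 7, beside 20.3%.

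Leaving out mouse 2 or 3 of the 100% SBT group left 5 and 4 receptors that rose, and leaving out control mouse 3 left 5, but *Olfr96*, *Olfr136* and *Olfr110* passed the test in each of the 12 alternatives run for them.

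*Olfr96* had the largest change among those that rose. It stood at 0.173%, 0.266% and 0.216% of OR reads in the control mice and at 1.15%, 1.54% and 1.32% at 100% SBT. Its log2 fold change was 3.01 (SE 0.27, adjusted p = 2.62e-05, edgeR), an 8.03-fold rise, with the second lowest p among all ORs tested. The lowest odor library was thus well above the highest control.

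*Olfr136*, the last gene of the cluster, took 0.218%, 0.261% and 0.223% in controls and 0.508%, 0.732% and 0.665% at 100% SBT. Its log2 fold change was 1.83 (SE 0.27, adjusted p = 0.000575, edgeR). The other 3 receptors of its subfamily, *Olfr133*, *Olfr134* and *Olfr135*, had log2 fold changes of 0.90, 0.87 and 2.11 and did not pass the test. *Olfr135* rested on 25 reads over the 6 libraries.

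*Olfr110* took 0.438%, 0.542% and 0.341% in controls and 0.698%, 1.17% and 0.723% at 100% SBT, a log2 fold change of 1.36 (SE 0.30, adjusted p = 0.00734, edgeR). *Olfr111* took 0.0659%, 0.0385% and 0.0879% in controls and 0.130%, 0.143% and 0.137% with odor, a log2 fold change of 1.52 (SE 0.39, adjusted p = 0.0200, edgeR). All odor libraries lay above all controls for either gene, as in 13.3% of all ORs tested. The call of *Olfr111* was lost without any one of the 3 odor mice or without control mouse 2 (adjusted p from 0.0594 to 0.0703), and with library totals (0.0775). With the reads of this near-identical pair added into 1 gene, the log2 fold change was 1.39 (SE 0.28, adjusted p = 0.00382, edgeR).

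The largest subfamily, *Olfr112* to *Olfr116* with *Olfr125* to *Olfr128*, held 4 of the 8 receptors that rose, among its 9 members. *Olfr112* took 0.00227%, 0.0700% and 0.0256% in controls, from 1, 40 and 7 reads, and 0.148%, 0.197% and 0.163% at 100% SBT (log2 fold change 2.71, SE 0.64, adjusted p = 0.0112, edgeR). Its control libraries therefore differed widely among themselves, and all of them lay below the odor libraries. Without control mouse 2 the log2 fold change was 4.19, and the call was lost without control mouse 3 (adjusted p = 0.0542) or mouse 3 of the odor group (adjusted p = 0.0536).

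*Olfr115* took 0.0386%, 0.129% and 0.0659% in controls and 0.172%, 0.319% and 0.172% at 100% SBT (log2 fold change 1.88, SE 0.45, adjusted p = 0.0124, edgeR). *Olfr116* took 0.148%, 0.175% and 0.103% in controls and 0.212%, 0.325% and 0.309% with odor (log2 fold change 1.36, SE 0.33, adjusted p = 0.0133, edgeR). Added together, these overlapping genes had a log2 fold change of 1.58 (SE 0.33, adjusted p = 0.00494, edgeR). *Olfr125* had the weakest call, from 0.0204%, 0.0385% and 0.0476% in controls to 0.0907%, 0.0689% and 0.0730% (log2 fold change 1.55, SE 0.44, adjusted p = 0.0355, edgeR). Left-out mice ended the calls of *Olfr115* (odor mouse 2 or control mouse 3, adjusted p up to 0.0732), *Olfr116* (control or odor mouse 3, up to 0.0536) and *Olfr125* (any odor mouse, control mouse 1 or control mouse 2, up to 0.156). Library totals also ended those of *Olfr116* (0.0679) and *Olfr125* (0.108).

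The other 5 members of this subfamily did not pass the test. *Olfr113*, *Olfr114* and *Olfr128* had log2 fold changes of 1.21, 1.16 and 0.84, and *Olfr126* and *Olfr127* of -0.55 and -0.33. Close sequence thus went with both called and uncalled receptors. The members of the *Olfr118* subfamily (*Olfr118* to *Olfr122* and *Olfr129*) all had negative values, from -1.53 to -0.19, and none of the 6 passed the test. By shares, *Olfr118*, *Olfr120*, *Olfr121* and *Olfr122* were below their controls in all 3 odor libraries, as were 20.3% of all ORs tested. This subfamily was picked after its values had been seen.

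**Figure D2:**
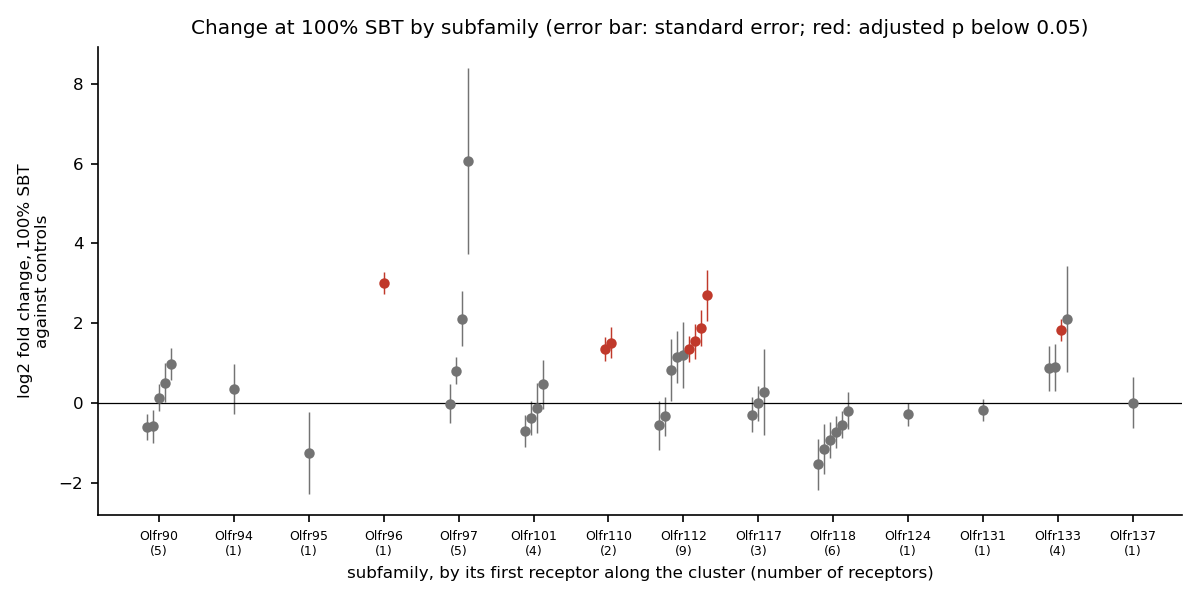
Fitted log2 fold change at 100% SBT against its controls (y axis) for the 43 receptors tested, grouped by subfamily (x axis); points are receptors, bars are standard errors and red marks an adjusted p below 0.05. The red points lie in 4 of the 14 subfamilies, 4 of them in that of *Olfr112*, and the far point of the *Olfr97* subfamily is *Olfr98*, with no read in the controls.

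*Olfr107* was the nearest to the threshold among uncalled receptors. It took 0.00227%, 0.156% and 0.0916% in controls and 0.261%, 0.228% and 0.344% at 100% SBT (log2 fold change 2.12, SE 0.68, adjusted p = 0.0668, edgeR). One control library, with a single read of the gene, stood far below the other 2. *Olfr98* had no read in the 3 controls and 7, 0 and 17 reads in the odor libraries (adjusted p = 0.147, edgeR). Its exons overlap an antisense gene by 354 bases, and 26.0% of its 50-base stretches also occur in *Olfr97*, so the source of these few reads is uncertain.

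At 1% SBT, none of the 43 receptors tested rose or fell, beside 0.863% of all ORs tested that rose. That background of 9 ORs was 0 without mouse 1 of the 1% group, 5 without mouse 3 or control mouse 2 and 23 in one fit of 51 libraries, while the count in the cluster was 0 in each of the 12 alternatives. No receptor of the cluster had an unadjusted p under 0.05 in edgeR, and DESeq2 called 0 as well. The lowest p belonged to *Olfr128*, at 0.00681%, 0.0140% and 0.0403% in controls and 0.0290%, 0.0964% and 0.0377% with odor (log2 fold change 1.57, SE 0.75, adjusted p = 0.994, edgeR). Next came *Olfr115* (log2 fold change 1.02, SE 0.49) and *Olfr98*, which had 0, 8 and 2 reads with odor. No receptor lay wholly above or below its controls in shares, beside 3.74% of all ORs above and 7.86% below.

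At 0.01% SBT, none of the 43 receptors rose or fell, beside 0.466% of all ORs tested that rose. In edgeR 1 receptor had an unadjusted p under 0.05, *Olfr98*, with 8, 8 and 0 reads with odor and 0, 0 and 1 in controls (adjusted p = 0.999), and DESeq2 called 0. *Olfr116* had a log2 fold change of -0.42 (SE 0.28) and *Olfr114* of 1.61 (SE 1.09). Shares of *Olfr111* were above all controls, beside 3.08% of all ORs, and those of *Olfr116* and *Olfr136* were below, beside 4.1%. These 3 shifts were small, and the last pair ran against their direction at 100% SBT.

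**Figure D3:**
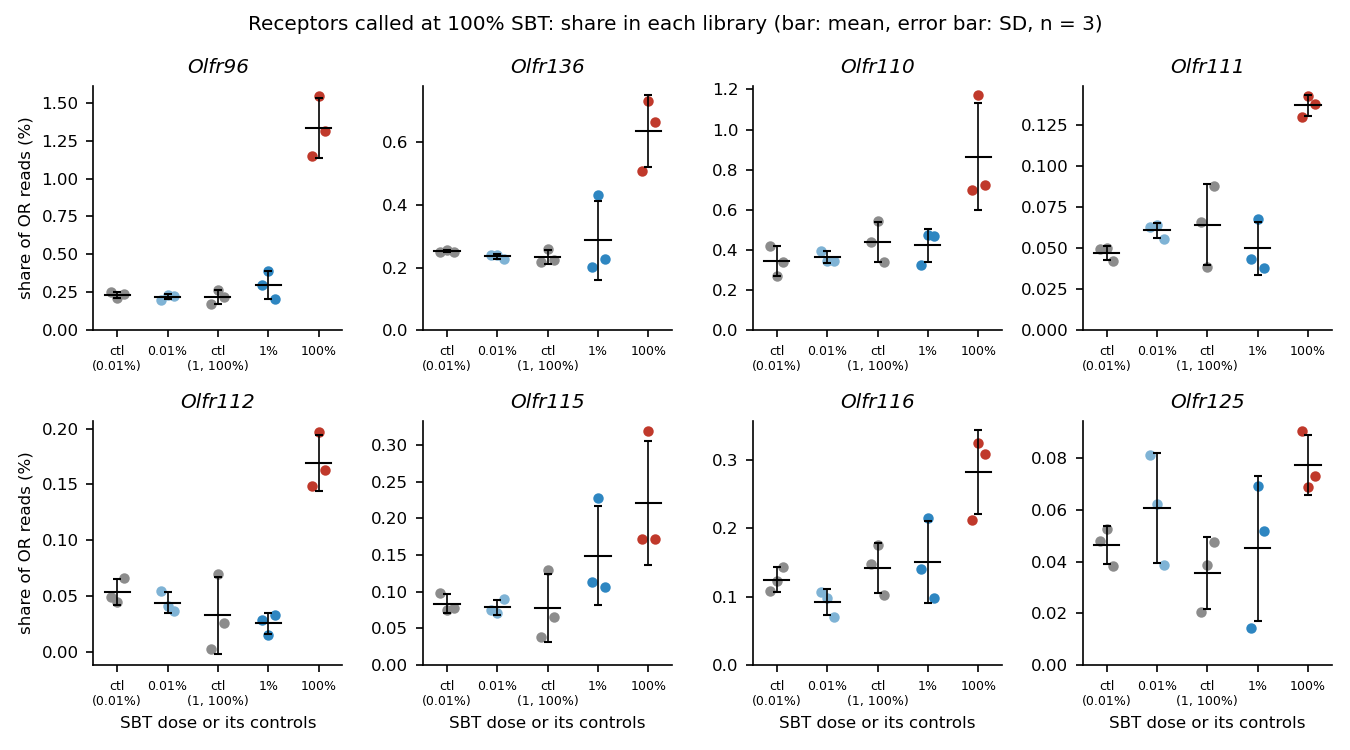
Share of OR reads (y axis, percent) of the 8 receptors that rose at 100% SBT, in each library of the 0.01%, 1% and 100% SBT groups and their controls (x axis); grey points are controls, the bar is the mean and the error bar the SD of 3 mice. In each panel the 100% SBT libraries (red) lie above the controls they share with the 1% group, and *Olfr96* goes from 0.218% in those controls to 1.34%.

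Side by side, none of the 8 receptors passed the test at 0.01% or 1% SBT. *Olfr96* had a log2 fold change of -0.06 at 0.01% SBT (approximate 95% interval -0.56 to 0.44), 0.56 at 1% (-0.16 to 1.29) and 3.01 at 100% (2.47 to 3.54). *Olfr136* had -0.08, 0.39 and 1.83, and *Olfr110* had 0.10, 0.06 and 1.36. *Olfr115* had -0.07, 1.02 (0.06 to 1.98, adjusted p = 0.994, edgeR) and 1.88. The interval of *Olfr96* at 0.01% leaves room for a change of about 0.44 or somewhat more on the log2 scale, and wider ones apply at 1%.

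The dose difference itself was tested. Between 100% and 1% SBT, 5 of 43 receptors were higher at 100%, beside 7.15% of all 1063 ORs tested. They were *Olfr112*, by 3.00 on the log2 scale (SE 0.65), *Olfr96*, by 2.47 (SE 0.35), *Olfr111*, by 1.76 (SE 0.42), *Olfr136*, by 1.47 (SE 0.34), and *Olfr110*, by 1.34 (SE 0.34), with edgeR adjusted p from 0.000272 (*Olfr96*) to 0.0196 (*Olfr110*). *Olfr116* (1.21, SE 0.36, adjusted p = 0.0524), *Olfr125* (1.08, SE 0.52, adjusted p = 0.296) and *Olfr115* (0.89, SE 0.44, adjusted p = 0.312) did not pass. *Olfr115* already stood at 0.113%, 0.228% and 0.107% at 1% SBT, and its lowest library at 100% was below its highest at 1%.

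With library totals only *Olfr96* and *Olfr112* passed, 2 in all, and the calls of *Olfr110*, *Olfr111* and *Olfr136* were lost (adjusted p = 0.0916, 0.0573 and 0.0664). With the replicate number as a block, 8 receptors were higher at 100% than at 1% SBT. Without mouse 2 of the 100% group only *Olfr96* and *Olfr112* were, 2 in all, and without control mouse 1 there were 8. The call of *Olfr110* was also lost without mouse 1 of the 1% group (adjusted p = 0.0736) and that of *Olfr111* without mouse 3 of it (adjusted p = 0.0553). Between 1% and 0.01% SBT, taken as a difference of the effects against each dose's own controls, no receptor differed, beside 0% of the 1082 ORs tested. In that contrast edgeR gave no receptor of the cluster an unadjusted p under 0.05, and DESeq2 called 0.

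**Figure D4:**
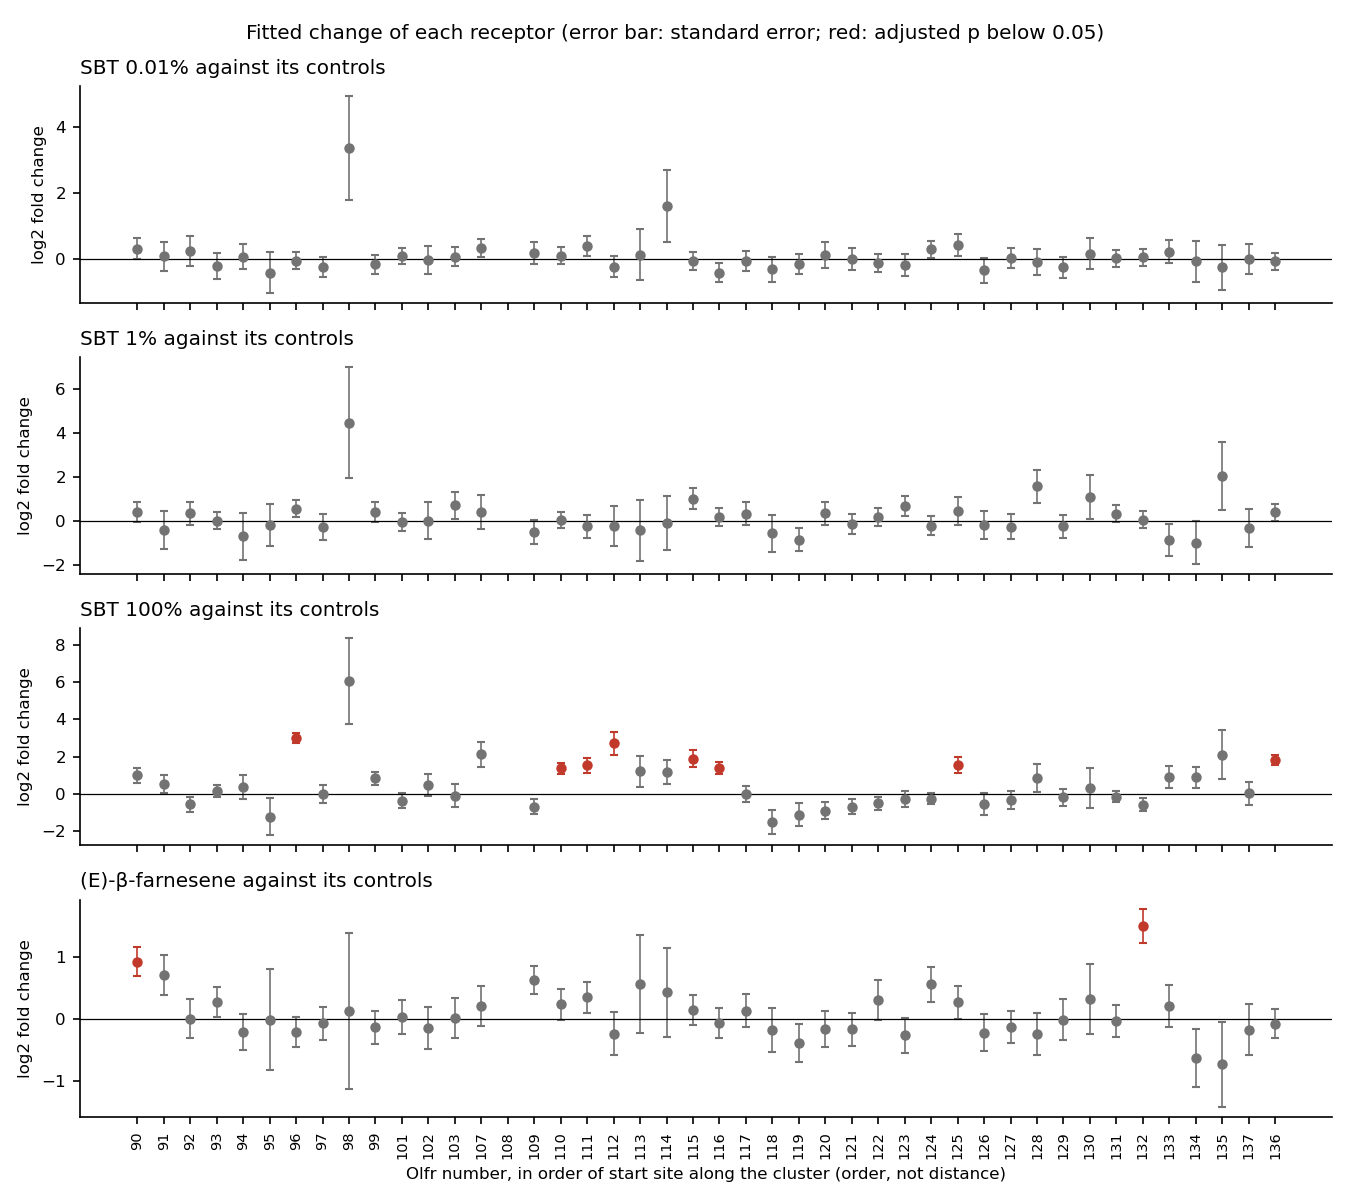
Fitted log2 fold change (y axis, its range differs between panels) of each receptor against its controls at the 3 SBT doses and with (*E*)-β-farnesene, in the order of the genes along the cluster (x axis, order and not distance); bars are standard errors, red marks an adjusted p below 0.05, and *Olfr108* was not tested. The 8 red points at 100% SBT include the neighbours *Olfr110* to *Olfr112* and *Olfr115* with *Olfr116*, and both red points with (*E*)-β-farnesene stand at 0.93 (*Olfr90*) and 1.50 (*Olfr132*).

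With (*E*)-β-farnesene, a sesquiterpene of male mouse urine, 2 of 43 receptors rose and none fell, beside 1.77% of all 1071 ORs tested that rose. The 2 belong to the same subfamily. *Olfr132* and *Olfr90* are 62.3% identical as proteins, although they lie near opposite ends of the cluster as the 39th and the first of the 44 genes. Their stretches from the codons of the same conserved motif on, with capitals where *Olfr90* differs from *Olfr132*, are on the minus strand at chr17:38130780-38130839 and chr17:37085759-37085818.
Olfr132: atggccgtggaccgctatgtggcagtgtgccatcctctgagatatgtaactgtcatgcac
Olfr90: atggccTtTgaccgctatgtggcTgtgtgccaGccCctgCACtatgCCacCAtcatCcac

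*Olfr132* took 0.355%, 0.260% and 0.224% of OR reads in the control mice and 0.737%, 0.800% and 0.772% with (*E*)-β-farnesene. Its log2 fold change was 1.50 (SE 0.27, adjusted p = 0.00238, edgeR), a 2.83-fold rise. *Olfr90* took 0.144%, 0.142% and 0.144% in controls and 0.273%, 0.279% and 0.241% with odor (log2 fold change 0.93, SE 0.23, adjusted p = 0.0375, edgeR). All odor libraries of both genes lay above all their controls, as in 6 of the 43 receptors tested and 5.32% of all ORs tested. The call of *Olfr132* was lost without control mouse 2 (adjusted p = 0.0533), and that of *Olfr90* without any one of 5 of the 6 mice (adjusted p from 0.0583 to 0.228), with library totals (0.0631) and in one fit of 51 libraries (0.518).

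The rest of their subfamily did not pass the test with (*E*)-β-farnesene. *Olfr91* had a log2 fold change of 0.71 (SE 0.32, adjusted p = 0.682, edgeR), *Olfr93* of 0.28 (SE 0.24) and *Olfr92* of 0.01 (SE 0.32). *Olfr91*, *Olfr92* and *Olfr93* are also 59.5% to 61.1% identical to *Olfr132*. Against the same 3 control mice, *Olfr132* had log2 fold changes of -0.16 with 2,5-DMP and -0.28 with 100 µM MTMT, and *Olfr90* of -0.21 and -0.51, none past the threshold. Which of these odor groups had controls in its own diluent is not known. At 100% SBT, against other controls, *Olfr132* had -0.60 (adjusted p = 0.345) and *Olfr90* 0.98 (adjusted p = 0.159).

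**Figure D5:**
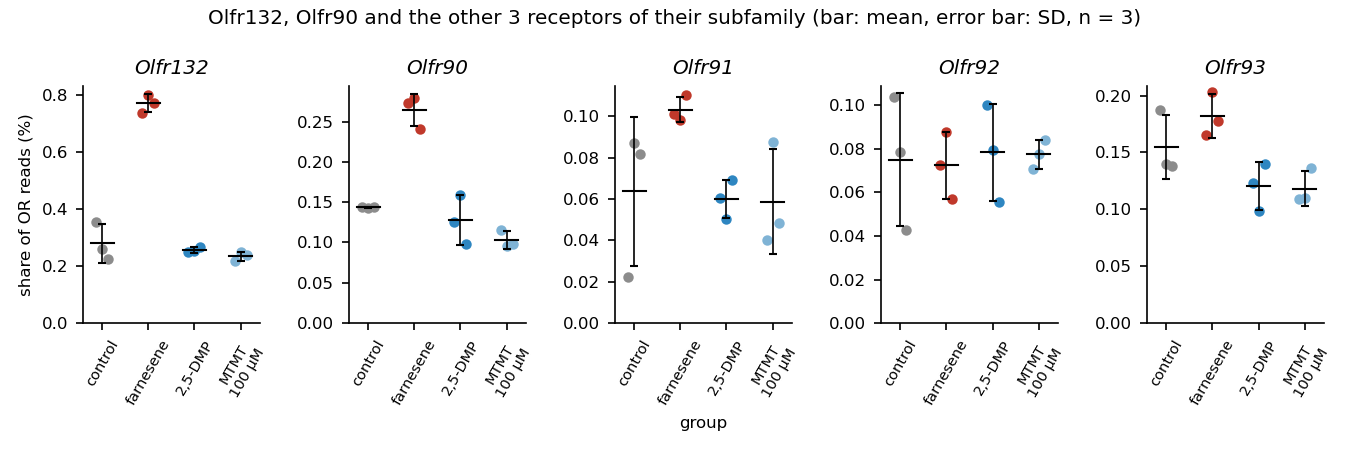
Share of OR reads (y axis, percent) of *Olfr132*, *Olfr90* and the other 3 receptors of their subfamily in the control mice (grey) and in mice exposed to (*E*)-β-farnesene (red), 2,5-DMP or 100 µM MTMT (blue), all against the same controls (x axis); the bar is the mean and the error bar the SD of 3 mice. *Olfr132* stands at 0.770% with (*E*)-β-farnesene and 0.280% in controls, while *Olfr92* overlaps between all 4 groups.

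No receptor of the cluster passed the test with the other 6 exposures, in edgeR. The share of all ORs that rose was 0.281% with 100 µM MTMT, 0.841% with 2,5-DMP, 0.564% with DHB, and 0% with 10 mM MTMT, β-caryophyllene and CPD alike. The number of receptors of the cluster with an unadjusted p under 0.05 was 1, 1, 1, 2, 3 and 1 in the same order, which is 2.33% to 6.98% of those tested, beside 3.57% to 6.55% of all ORs. DESeq2 called 1 with DHB and 0 with each of the other 5.

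That receptor was *Olfr110*, which at 100% SBT also rose. With DHB it took 1.52%, 0.749% and 0.599%, against 0.534%, 0.310% and 0.441% in controls, a log2 fold change of 1.28 (SE 0.34, adjusted p = 0.155, edgeR). All odor libraries lay above all controls, as in 3.95% of all ORs tested, with 1 mouse much higher than the other 2. The call depended on the alternative. The adjusted p was 0.0471 in DESeq2, 0.000272 with the replicate block, 0.0261 in one fit of 51 libraries and 0.0140 without odor mouse 3. It stayed above the threshold in the other 8 alternatives, and without odor mouse 1, the highest, the log2 fold change was 0.69 (adjusted p = 0.992). *Olfr111*, its near-identical neighbour, had the lowest p with 2,5-DMP, at 0.123%, 0.101% and 0.0866% against 0.0640%, 0.0728% and 0.0640% (log2 fold change 0.59, SE 0.26, adjusted p = 0.970, edgeR).

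With 10 mM MTMT the lowest p was that of *Olfr133*, at 0.0526%, 0.0341% and 0.190% against 0.0291%, 0.0339% and 0.0239% in controls (log2 fold change 2.05, SE 0.64, adjusted p = 0.449, edgeR). One odor library gave most of that difference. *Olfr103* had the lowest p with β-caryophyllene, at 0.0495%, 0.0890% and 0.0447% against 0.0273%, 0.0156% and 0.00995% (log2 fold change 1.89, SE 0.53, adjusted p = 0.904, edgeR). *Olfr112* had it with CPD (log2 fold change 1.14, SE 0.40, adjusted p = 0.993, edgeR), and *Olfr90* with 100 µM MTMT (log2 fold change -0.51, SE 0.21, adjusted p = 0.955, edgeR).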

How the data were processed

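The authors aligned single reads of 50 or 75 bases with STAR to GRCm38 (GENCODE), allowing multiple alignments, quantified genes with RSEM and kept intact OR genes. Expected counts, estimated by the authors with RSEM, were deposited as whole numbers per gene and library, without normalization, in 10 tables. The library kit does not keep strand. The authors' own fold changes, p-values and related statistics, deposited beside the counts, were not used. In the table of another odorant, 6 per-sample columns matched no sample and were not used.

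Members and subfamily lists were chosen with earlier results of these data known. Shares are percents of all OR reads of a library. Groups were tested in edgeR 4.0.16 under R 4.3.3 (TMM over OR genes, at least 10 reads over the libraries compared, glmQLFit and glmQLFTest, Benjamini-Hochberg adjustment over all ORs tested, threshold 0.05); the standard error is the log2 fold change over the square root of F, and intervals are 1.96 standard errors either side. The 100% and 1% SBT groups were compared directly, with their controls in the fit; 1% and 0.01% SBT through their own controls. The receptors named were all that passed a test, the lowest p in each comparison (the lowest 3 at each SBT dose) and the 5 highest and 3 lowest mean control shares; the rest were named by subfamily after their values had been seen. Alternatives were a replicate block, DESeq2 1.42.0, library totals, a minimum of 1 read, the likelihood ratio test, one fit of all 51 libraries, each library left out, and, added after seeing the data, near-identical or overlapping genes added together. The fit was tested on simulated data. Replicate libraries differed by more than counting noise in all 51 pairs (chi-squared per degree of freedom 5.22 to 28.0).

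Equal replicate numbers were checked for pairing by the correlation of deviations from group means. It ranged from -0.0021 to 0.269 and exceeded 0.1 for all 3 numbers in 1 of 10 comparisons, 100% SBT. There the numbers were taken to pair mice, which the labels do not say. The main edgeR fits did not use the pairing, which entered only the replicate block and the summed share. Positions, exons, coding sequences and shared stretches were taken from GENCODE M21 on GRCm38. All 44 receptors matched.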

Additional observations from a re-analysis of the deposited data

Results flagged for a closer look

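The effect of SBT differed between 100% and 1% for 5 receptors, by a direct test of the difference with edgeR. On the log2 scale it was larger at 100% by 3.00 for *Olfr112*, 2.47 for *Olfr96*, 1.76 for *Olfr111*, 1.47 for *Olfr136* and 1.34 for *Olfr110*. Of all ORs tested, 7.15% were higher at 100%, and with library totals only *Olfr96* and *Olfr112* of the 5 passed. Each of the 5 was higher in all 3 libraries at 100% SBT than in any at 1%. These are the libraries that the test used, so the separation adds no support. The share of all ORs separated in this way was not computed. Groups of 3 libraries are too small to screen for single libraries that stand apart.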

How the results depend on the processing

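At 100% SBT the count of receptors that rose was 8; it was 5 with library totals, 4 to 9 with a library left out, and 9 with the replicate block. For 100% against 1% SBT the count of 5 became 2 with library totals, 8 with the replicate block and 2 to 8 with a library left out. With (*E*)-β-farnesene the count of 2 became 1 with library totals and 1 in one fit of 51 libraries, and 0 to 2 with a library left out. With DHB the count of 0 became 1, *Olfr110*, with the replicate block, with DESeq2, in one fit of 51 libraries and without DHB mouse 3 (0 to 1 over the libraries left out). With 10 mM MTMT it became 1, *Olfr133*, in one fit of 51 libraries. The cause of these changes was not tested. For 100% SBT, adding *Olfr110* to *Olfr111* and *Olfr115* to *Olfr116* left 6 called genes. Scaling by library totals moved ORs that rose or fell at 100% SBT from 112 and 8 to 85 and 42. The log2 ratio of the summed share with (*E*)-β-farnesene was 0.25, and 0.19 without *Olfr124*, the receptor with most reads. The summed share moved by less than the spread between mice in the other alternatives, for all 10 exposures. None of these alternatives left out *Olfr96* or *Olfr132*. The replicate block changed no other call among those counts; outside 100% SBT the numbers were not taken as pairs, though in 6 of 10 comparisons each correlation of equal numbers was above each of unequal numbers. No followed receptor changed direction. Depth limits the rarest receptors, *Olfr98* and *Olfr108*, most.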
